A study of Equus caballus with 37 samples.

Results

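The purinergic receptor P2RY14 (ENSECAG00000001554) and the activin receptor ACVR2A (ENSECAG00000000138) are the genes described here, 2 of the 26991 rows of the raw gene count table. Both were chosen by identifier, by a rule that applies no cutoff on measured values but names the spread within T3. Earlier results of these data were known when they were chosen. Both genes also appear among those the study listed as changed in these same libraries. Neither their differences between periods nor their spread within T3 is therefore independent evidence that they respond to training.

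P2RY14 is a Gi-coupled receptor at the cell surface that responds to extracellular UDP-glucose and related UDP-sugars, molecules that damaged or stimulated cells release. It is known from leukocytes, where it has been linked to neutrophil movement and inflammation. ACVR2A is a type II serine/threonine kinase receptor that binds activins and other ligands of the TGF-beta family, pairs with a type I receptor and passes the signal to SMAD transcription factors, with known roles in reproduction, blood cell formation and the control of muscle mass.

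RNA was sequenced from jugular blood of Arabian horses in race training and of untrained Arabian horses, in 37 libraries of 4 periods. T0 held 6 libraries of untrained horses (2 mares and 4 stallions, 5 labelled 2.5 years old and 1 labelled 3). T1 held 12 libraries drawn in March after the slow canter phase (5 mares, 7 stallions), T2 held 11 drawn in May after the intense gallop phase (4 mares, 7 stallions), and T3 held 8 drawn in October at the end of racing (4 mares, 4 stallions), all of horses labelled 3 years old. All horses came from 1 stud, and blood was taken before the day's exercise, after the morning feed. The study left out samples of horses taken out of training, naming lameness or poor metabolic performance as reasons. The periods may thus not hold the same horses. The trained horses were sampled repeatedly, and some untrained horses may be among them, but no horse is named in the labels. The periods were therefore treated as independent groups, and p-values measure the spread between these libraries.

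Expression is given as CPM, the counts of a gene per 1000000 counts of the library, with the library total multiplied by a TMM factor. The factor corrects for differences in composition and is near 1 in a typical library. Total counts ranged from 3810631 to 14932603, with a median of 10611594, so that 1 CPM stood for about 10.6 reads at a TMM factor of 1. The TMM factor lay between 1.17 and 1.24 in T0, 0.949 and 1.21 in T2, and 1.05 and 1.25 in T3. In T1, 5 of 12 libraries (replicates 1, 2, 3, 4 and 11) had a factor of at most 0.696 and the other 7 had at least 0.922. Log2 fold changes of both receptors and counts over gene lists that involve T1 are therefore given with and without those 5 libraries, a choice made after seeing the data. Markers of blood cell types could not be paired with the identifiers of the count table, so the cell composition of the samples was not measured. In bulk blood, fewer cells of a type and less RNA per cell cannot be told apart.

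The study also measured both receptors by qPCR, with primers it designed. By qPCR it reported P2RY14 as higher in T3 than in T2, and no significant difference between periods for ACVR2A. Its text also describes P2RY14 by qPCR as increased in training over untrained horses. Its table of qPCR fold changes marks P2RY14 as not significant for T3 against T0 and for T1 against T2. The primers are shown because they define the stretch of each transcript that the qPCR read. The P2RY14 product, unlike that of ACVR2A, does not span exons. All 4 are 20 bases long and are written 5′ to 3′.
P2RY14 forward: agcaaactcctgtcggtgat
P2RY14 reverse: gtttgaggctttgtgccact
ACVR2A forward: gccatttgaggaggaaattg
ACVR2A reverse: ccagctgataacctggcttc
Their GC content was 50% for both P2RY14 primers, 45% for the ACVR2A forward primer and 55% for its reverse primer.

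In the RefSeq annotation of the horse assembly TB-T2T, the interval of P2RY14 lies inside the intervals of MED12L, a subunit of the Mediator kinase module, and of GPR171, another G protein-coupled receptor. The purinergic receptors P2RY12 and P2RY13 are among its close neighbours. ACVR2A overlaps no other gene there, and ORC4, MBD5 and the noncoding RNA gene LOC138918710 are nearby. The libraries were made with a kit that does not mark strand, so reads of overlapping genes in the P2RY14 cluster could not be told apart by strand. The counts use an older assembly, and positions on it are not given here.

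P2RY14 was lower in T1 and T2 than in untrained horses and higher in T3 than in T1 or T2. The drop was about 2-fold (2.18-fold in T1, 1.99-fold in T2), and T3 was 2.95-fold above T1 and 2.72-fold above T2. The untrained horses had a mean of 15.9 ± 4.52 CPM (SD, n = 6). The means of the trained horses were 7.31 ± 4.42 CPM (SD, n = 12) after the canter phase (T1), 7.84 ± 2.22 CPM (SD, n = 11) after the gallop phase (T2) and 21.7 ± 15.6 CPM (SD, n = 8) at the season's end (T3). From the highest mean to the lowest the order was T3, T0, T2 and T1. T0 and T2 were the only neighbours in it that were called different, while T3 and T0, and T2 and T1, were not told apart beyond their spread.

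In the untrained horses (T0), P2RY14 had a lowest value of 11.8 CPM, a median of 14.9 CPM and a highest value of 23.5 CPM. In T1 it had a lowest value of 1.10 CPM, a median of 7.33 CPM and a highest value of 17.4 CPM. Replicate 12 was the only T1 library inside the T0 range, and the other 11 lay below the lowest T0 library. In T2 the lowest value was 4.76 CPM, the median 7.96 CPM and the highest 11.7 CPM. All 11 T2 libraries thus lay below the lowest T0 library, so the groups did not overlap, although the highest T2 value was only just under the lowest T0 value.

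In T3, P2RY14 reached 7.16, 8.05, 9.87, 47.3, 9.12, 34.6, 21.9 and 35.4 CPM in replicates 1 to 8. Replicates 1, 2, 3 and 5 lay between the lowest and the highest T2 library, and replicates 4, 6, 7 and 8 lay above every T1 and T2 library. No T3 library fell between 9.87 and 21.9 CPM, a 2.22-fold gap and the widest on a ratio scale within T3. In T1 the widest gap was of like size, 2.21-fold between 1.10 and 2.43 CPM, with 1 library below it. Whether the gap in T3 marks separate sets of horses was not tested. The reads behind these values numbered 93 to 155 in replicates 1, 2, 3 and 5 and 383 to 602 in replicates 4, 6, 7 and 8. A sequencing pool is a group of libraries sequenced together. The study's list of pools runs through the periods in the same order as the library labels, though no label ties single samples to it. Read in that order, T3 replicates 1 and 2, both below the gap, shared a pool. Replicates 6, 7 and 8, all above it, shared another. Replicates 3, 4 and 5 shared a further pool, with 3 and 5 below the gap and 4 above it. Whether pool and P2RY14 were related in T3 was not tested.

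**Figure D1:**
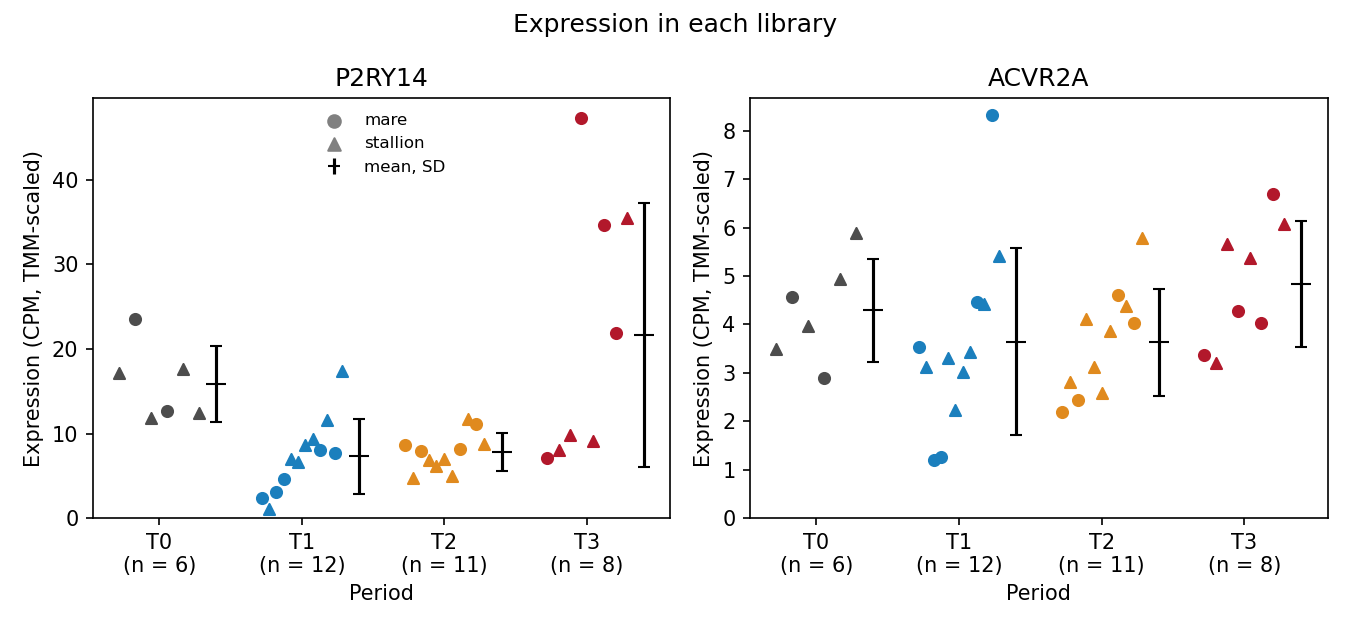
Expression of P2RY14 (left) and ACVR2A (right) in each library, in CPM of the TMM-scaled total, by period; circles are mares, triangles are stallions, the horizontal order within a period is the replicate number and the black bar is the mean with 1 SD. P2RY14 in T3 had 4 libraries at 7.16 to 9.87 CPM and 4 at 21.9 to 47.3 CPM, while ACVR2A overlaps between all 4 periods.

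Differences between periods were tested with edgeR's quasi-likelihood test over all genes, with Benjamini-Hochberg adjustment, and a gene counted as called when its adjusted p was under 0.05 and it changed by 1.3-fold or more. A log2 fold change of 1 is a doubling, and each is the second period minus the first. From T0 to T1, P2RY14 fell by 1.13 on the log2 scale (standard error 0.36, 95% interval from -1.87 to -0.38, edgeR adjusted p = 0.011), with 11 of 12 T1 libraries below the T0 median. In that comparison 58.1% of 11544 genes were called and 29.2% were called lower in T1, so a call there was common. Without the 5 T1 libraries of low TMM factor the log2 fold change was -0.68 (edgeR adjusted p = 0.018), and with the log2 TMM factor as a covariate it was -0.44 and not called (edgeR adjusted p = 0.36). With that covariate 2795 genes were called in this pair, against 6708 without it.

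From T0 to T2, P2RY14 fell by 0.99 on the log2 scale (standard error 0.19, 95% interval from -1.39 to -0.59, edgeR adjusted p = 0.0019), with 11 of 11 T2 libraries below the T0 median. Of 11662 genes tested, 33.4% were called, 16.5% were called lower in T2, and 7.98% had no overlap between both periods, as P2RY14 had none. A larger log2 fold change in either direction was found for 6.56% of the tested genes. Period and sequencing pool partly coincide, as described with sex and age below. An exact permutation test of its mean log2 CPM gave the same direction, a difference of -1.01 with p = 8.1e-05 (0.00097 adjusted over the 12 tests of both receptors). With the log2 TMM factor as a covariate the log2 fold change was -0.62 and not called (edgeR adjusted p = 0.42). In that setting edgeR called 0 of all genes tested, with 1180 at an unadjusted p under 0.05, so the lost call is not particular to P2RY14.

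From T1 to T3, P2RY14 rose by 1.56 on the log2 scale (standard error 0.41, 95% interval from 0.71 to 2.41, edgeR adjusted p = 0.0022), and 7 of 8 T3 libraries lay above the T1 median. This was the comparison with the most calls, 65% of 11471 genes, with 32.9% called higher in T3. The log2 fold change was 1.14 without the 5 T1 libraries of low TMM factor (edgeR adjusted p = 0.020) and 1.06 with the log2 TMM factor as a covariate, where it was not called (edgeR adjusted p = 0.062). With that covariate 4804 genes were called in this pair, against 7452 without it.

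From T2 to T3, P2RY14 rose by 1.44 on the log2 scale (standard error 0.32, 95% interval from 0.77 to 2.11, edgeR adjusted p = 0.0012). Of 8 T3 libraries, 7 were above the T2 median and 4 above the highest T2 library. In this pair 44% of 11599 genes were called and 22.5% were called higher in T3, and 2.28% had a higher log2 fold change than P2RY14. The call was kept when any 1 of the 19 libraries was left out (1.18 to 1.58) and in all other alternatives tried.

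P2RY14 was not called between T0 and T3, where its log2 fold change was 0.43 (standard error 0.41, 95% interval from -0.44 to 1.31, edgeR adjusted p = 0.48). Of the 8 T3 libraries, 3 lay above the highest T0 library, 4 below the lowest and 1 inside the T0 range, so T3 spread to both sides of the untrained horses. In this pair 19.6% of 11696 genes were called. Between T1 and T2 the log2 fold change of P2RY14 was 0.11 (standard error 0.29, 95% interval from -0.49 to 0.70, edgeR adjusted p = 0.78), in a pair in which 32% of 11188 genes were called. Its sign was not settled, being -0.31 without the 5 T1 libraries of low TMM factor. The study listed P2RY14 as up-regulated for T1:T2, T2:T3 and T0:T3, of which only T2:T3 was called here. Its table of fold changes beside qPCR marks T0:T3 as not significant. The comparisons share libraries, so the calls of P2RY14 in several pairs are not separate observations.

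ACVR2A had low counts in every period and was called in 0 of the 6 comparisons by edgeR, with 1 at an unadjusted p under 0.05. DESeq2 also called it in 0 and limma-voom in 1, T1 against T3. The study, with another version of DESeq2, listed ACVR2A as up-regulated for T1:T2 and T2:T3. Neither pair was called here by edgeR or DESeq2. The mean in the untrained horses was 4.29 ± 1.07 CPM (SD, n = 6). In the trained horses it was 3.64 ± 1.92 CPM (SD, n = 12) at T1, 3.63 ± 1.10 CPM (SD, n = 11) at T2 and 4.83 ± 1.29 CPM (SD, n = 8) at T3. The order of its means was thus T3, T0, T1 and T2, and no neighbours in it were told apart beyond their spread. Between 7 and 117 reads stood behind these values in a library, against 6 to 602 for P2RY14.

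In T0, ACVR2A had a lowest value of 2.89 CPM, a median of 4.27 CPM and a highest value of 5.88 CPM. In T1 the lowest value was 1.198 CPM, the median 3.37 CPM and the highest 8.32 CPM. The highest T1 value came from replicate 11, which had the lowest total and the lowest TMM factor (0.410) of all libraries and only 13 reads of ACVR2A. In T2 the lowest value was 2.20 CPM, the median 3.86 CPM and the highest 5.79 CPM. In T3 the values were 3.37, 3.20, 5.67, 4.27, 5.36, 4.02, 6.69 and 6.07 CPM in replicates 1 to 8. These ranges overlapped between all periods, with 2 of 8 T3 libraries above the highest T2 library and 0 of 8 above the highest T1 library.

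The difference in ACVR2A closest to a call was that between T2 and T3, 0.40 on the log2 scale (standard error 0.19, 95% interval from 0.01 to 0.79, edgeR unadjusted p = 0.047, adjusted p = 0.081) and 6 of 8 T3 libraries above the T2 median. In that pair 49.2% of all genes tested had a larger change in either direction. It was called higher in T3 with a surrogate variable as a term (0.45, edgeR adjusted p = 0.038), when each library had to hold 6 or more counts of a gene (0.51, edgeR adjusted p = 0.031) and in libraries thinned to the smallest total (0.70, edgeR adjusted p = 0.048). Leaving out T2 replicate 11 (0.48, edgeR adjusted p = 0.032) or T3 replicate 2 (0.46, edgeR adjusted p = 0.048) also gave a call.

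For T1 against T3 the log2 fold change of ACVR2A was 0.48 (standard error 0.27, 95% interval from -0.07 to 1.04, edgeR adjusted p = 0.11), and 6 of 8 T3 libraries lay above the T1 median. It was called in the same 3 settings (0.59, 0.73 and 0.80, edgeR adjusted p of 0.045, 0.016 and 0.040), with limma-voom (0.60, adjusted p = 0.045) and without T1 replicate 11 (0.60, edgeR adjusted p = 0.034). Without all 5 T1 libraries of low TMM factor it was 0.37 and not called (edgeR adjusted p = 0.12). Against the untrained horses, ACVR2A had a log2 fold change of -0.32 in T1 (standard error 0.30, 95% interval from -0.94 to 0.31), -0.22 in T2 (standard error 0.21, 95% interval from -0.65 to 0.21) and 0.16 in T3 (standard error 0.20, 95% interval from -0.26 to 0.57), with edgeR adjusted p of 0.37, 0.41 and 0.59. Between T1 and T2 it was 0.07 (standard error 0.25, 95% interval from -0.44 to 0.58, edgeR adjusted p = 0.83). Without the 5 T1 libraries of low TMM factor, ACVR2A had -0.18 for T0:T1 (edgeR adjusted p = 0.50) and -0.033 for T1:T2 (edgeR adjusted p = 0.95), so its sign in the latter pair was not settled. The lower end of the interval for T1, -0.94, was close to the log2 fold change of P2RY14 in that comparison.

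**Figure D2:**
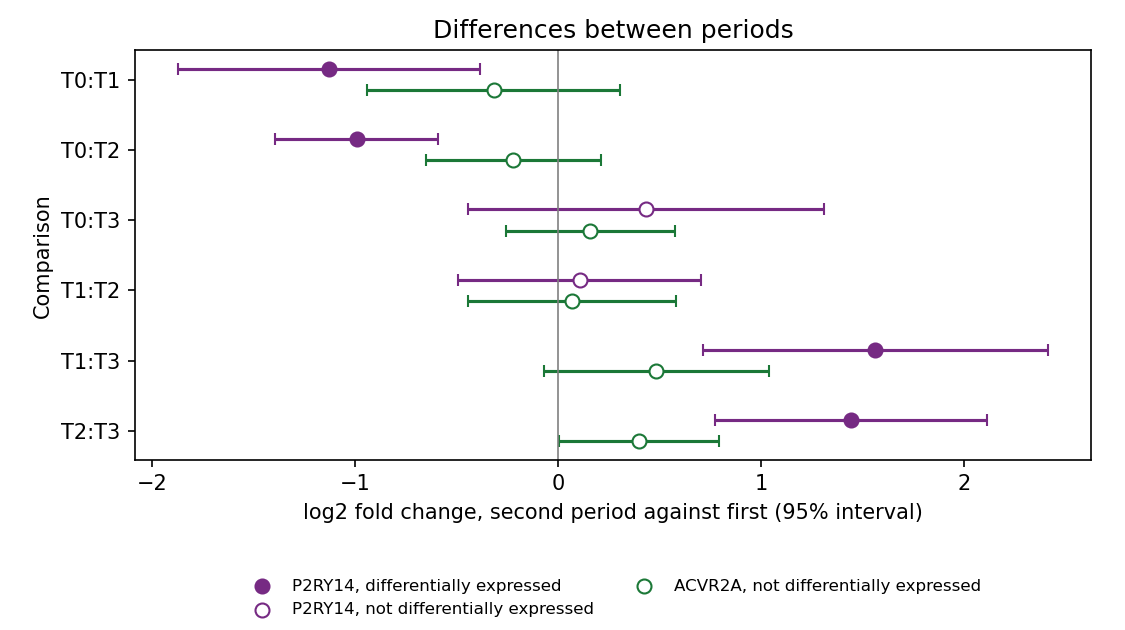
Log2 fold change of P2RY14 (purple) and ACVR2A (green) in the 6 comparisons, second period against first, with 95% intervals; filled points were called differentially expressed and open points were not. P2RY14 was called in 4 comparisons, below 0 for T0:T1 and T0:T2 and above 0 for T1:T3 and T2:T3, and ACVR2A was called in 0.

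The ratio of both receptors within a library does not depend on scaling. It was formed from the counts with 0.5 added to each and is not corrected for transcript length, so only its change between periods is compared. The log2 ratio of P2RY14 to ACVR2A was 1.87 ± 0.49 (SD, n = 6) in the untrained horses, and 0.88 ± 1.02 (SD, n = 12), 1.11 ± 0.50 (SD, n = 11) and 1.84 ± 1.06 (SD, n = 8) at T1, T2 and T3. In permutation tests adjusted over the 6 pairs, 0 pairs passed 0.05, and 2 had an unadjusted p under 0.05. The pair with the smallest p was T0 against T2, with a difference of -0.76, an exact permutation p of 0.010 and an adjusted p of 0.063. T2 against T3 gave 0.74 with an exact permutation p of 0.057 and an adjusted p of 0.086. That P2RY14 was called where ACVR2A was not is therefore not shown to be a difference between both receptors.

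In T3 the ratio of counts ran from 1.70 in replicate 5 to 10.98 in replicate 4. The lowest T1 ratio, 0.371 in replicate 2, rested on 6 reads of P2RY14 and 17 of ACVR2A. Replicates 4, 6 and 8 of T3, with 10.98, 8.55 and 5.81, had the 3 highest ratios of the series, and the next was 5.12 in T0 replicate 2.

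**Figure D3:**
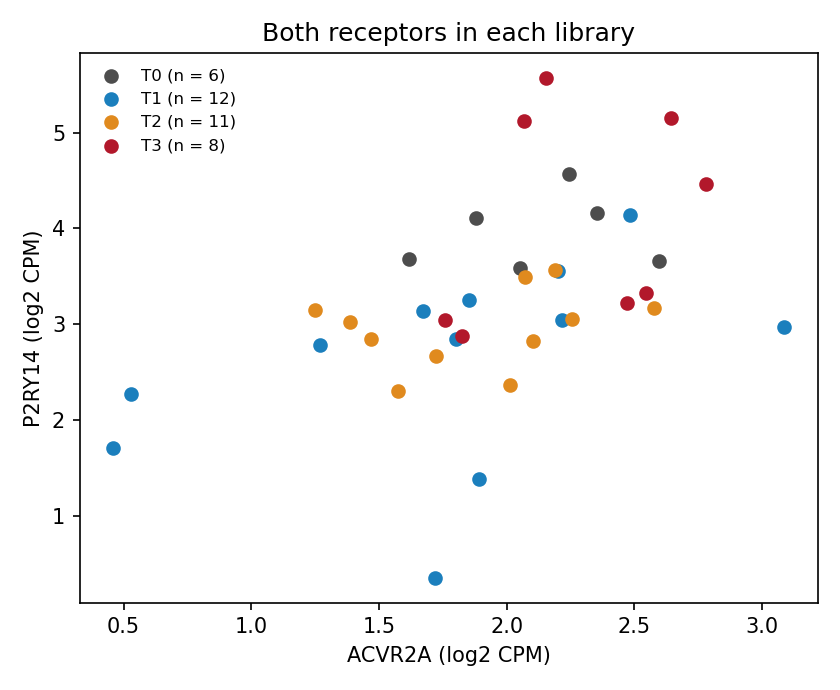
Log2 CPM of P2RY14 (vertical) against ACVR2A (horizontal) in the 37 libraries, coloured by period. The 4 T3 libraries with the most P2RY14 had 4.02 to 6.69 CPM of ACVR2A, and the lowest point is T1 replicate 2 at 1.10 CPM of P2RY14 and 3.12 CPM of ACVR2A.

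Within the periods, the relation between the levels of both receptors did not pass 0.05 after adjustment in T0, T1, T2 or T3. In T0 the log2 CPM of P2RY14 and ACVR2A had a Pearson r of 0.16 (exact permutation p = 0.78, adjusted over 12 relations 0.93) and a Spearman rho of 0.09 (exact permutation p = 0.92, adjusted 0.92). In T2, r was 0.30 (permutation p = 0.37, adjusted 0.59) and rho 0.36 (permutation p = 0.27, adjusted 0.51). Without the 2 libraries farthest from the median of ACVR2A, r was 0.41 in T0 and 0.55 in T2. Over the 12 T1 libraries, r was 0.43 (permutation p = 0.16, adjusted 0.59) and rho 0.54 (permutation p = 0.074, adjusted 0.45), and r was 0.35 without the 2 farthest. Within the 7 T1 libraries with a TMM factor of at least 0.922, r was 0.79 (exact permutation p = 0.031, adjusted over 3 relations 0.092) and rho 0.71 (exact permutation p = 0.088, adjusted 0.26), and r fell to 0.44 without the 2 farthest libraries. In T3, the widest gap in P2RY14 left 4 libraries on each side, too few to test the relation within a side. The r over all T3 libraries, 0.31 (exact permutation p = 0.44, adjusted 0.59; rho 0.48, exact permutation p = 0.24, adjusted 0.51), rested on the 2 libraries farthest from the median of ACVR2A and was -0.42 without them.

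The spread of P2RY14 within T3 was wide compared with T0, with T2 and with other genes. Its coefficient of variation was 72.0% in T3, 60.5% in T1, 28.4% in T0 and 28.3% in T2. On the log2 CPM scale its SD was 1.10 in T3, and 1.59% of 12025 genes had a larger SD in T3, where the median gene had 0.28.

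The spread was tested as the mean absolute deviation of log2 CPM from the median of the period, with exact permutation tests adjusted over the 6 tests of both receptors. The rule that chose both genes names the spread within T3, and earlier results were known. These p-values are therefore descriptive and not an independent test. For P2RY14 it was 0.98 in T3 against 0.32 in T0 (exact permutation p = 0.0027, adjusted p = 0.0080) and 0.31 in T2 (exact permutation p = 2.6e-04, adjusted p = 0.0016). Against T1 it was 0.98 to 0.73 (exact permutation p = 0.42, adjusted p = 0.62). With 1 T3 library left out, the T0 call was lost whichever of the 8 it was, while the difference stayed between 0.48 and 0.64. The T2 call was lost without T3 replicate 4, 6, 7 or 8, with a difference of 0.49 to 0.65 over all 8 cases. With deviations from the mean in place of the median, a choice made after seeing the data, both calls were kept in all 8 cases, with exact permutation p adjusted to at most 0.019 against T0 and 0.0064 against T2.

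ACVR2A had no such spread in T3. Its SD of log2 CPM was 0.38 in T3, with 30.3% of genes above it, and 0.35 in T0, 0.75 in T1 and 0.42 in T2. Its mean absolute deviation in T3 was 0.33, against 0.28 in T0, 0.52 in T1 and 0.34 in T2, and the exact permutation p-values, adjusted, ran from 0.62 to 0.88.

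**Figure D4:**
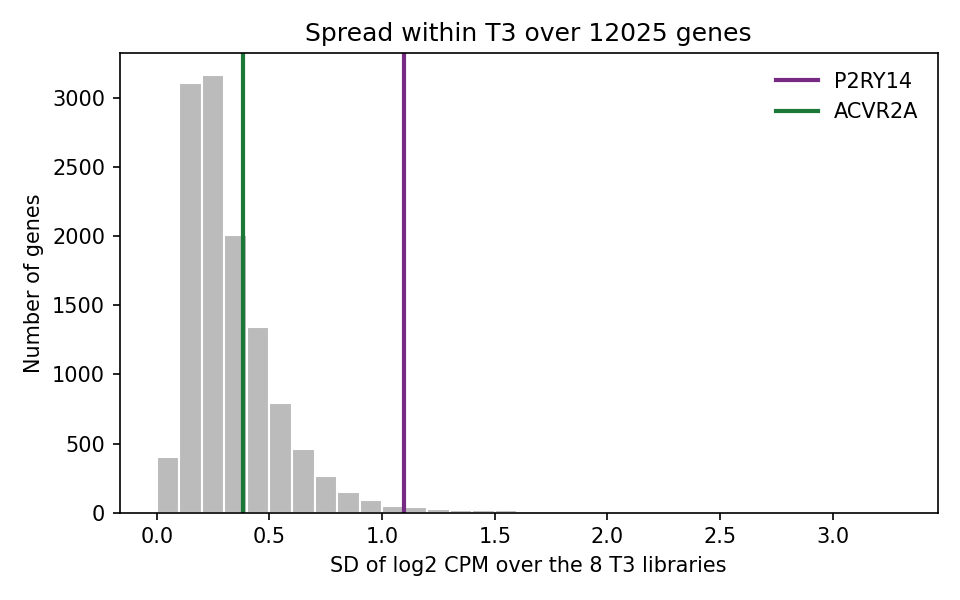
Number of genes by the SD of log2 CPM over the 8 T3 libraries, for the 12025 genes that passed the filter on low counts; the vertical lines mark P2RY14 (1.10) and ACVR2A (0.38). P2RY14 lies in the thin upper tail, with 1.59% of genes beyond it, and ACVR2A lies near the bulk.

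Within a period the labels gave sex and, in T0, age. The study also lists a sequencing pool for each sample, under sample numbers that the labels do not carry. In that list the T0 samples lie in fewer pools than those of T1 or T2, so period and pool partly coincide. Read in the order of the labels, T1 replicates 1 to 4 and T2 replicates 2 and 7 shared a pool that held no T0 library. Their P2RY14 values, 1.10 to 4.64 CPM in T1 and 4.76 and 4.96 CPM in T2, were the lowest of their periods. These T1 replicates are also among those of low TMM factor. The differences between T0 and T1 or T2 thus partly coincide with pool. Pool was not a term in any test, and its relation to P2RY14 was not tested. The 1 T0 horse labelled 3 years old, the mare of replicate 2, had the highest P2RY14 of T0, 23.5 CPM against at most 17.7 CPM in the other 5 horses, all labelled 2.5 years old. With 1 horse of that age in T0, age could not be tested there. Without this library P2RY14 was still called lower in T1 (-0.99, edgeR adjusted p = 0.040) and in T2 (-0.85, edgeR adjusted p = 0.0064) than in T0. In T3, 3 of the 4 mares (47.3, 34.6 and 21.9 CPM) lay above the gap and 1 (7.16 CPM) below it, whereas 3 of the 4 stallions (8.05, 9.87 and 9.12 CPM) lay below it and 1 (35.4 CPM) above. The mean log2 CPM of stallions minus mares was -0.82 (exact permutation p = 0.40, smallest possible 0.029). Over the 8 tests of both receptors in 4 periods, the adjusted exact permutation p was at least 0.62. With 2 mares in T0 the smallest possible p was 0.067, so that period could not pass the threshold.

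In T1, the median of P2RY14 was lower in the libraries with a low TMM factor, but the relation over all 12 libraries did not pass adjustment. Over the 12 T1 libraries, the Pearson r of log2 CPM with the log2 TMM factor was 0.65 (permutation p = 0.018, adjusted over 12 relations 0.21) and Spearman rho was 0.56 (permutation p = 0.061, adjusted 0.45). Without the 2 libraries farthest from the median factor, r was 0.86 (permutation p = 0.0016, adjusted 0.019). In the 5 T1 libraries with a factor of at most 0.696, P2RY14 lay between 1.10 and 7.68 CPM with a median of 3.08 CPM, and in the other 7 between 6.70 and 17.4 CPM with a median of 8.62 CPM. The corresponding values of ACVR2A were 1.198 to 8.32 CPM with a median of 3.12 CPM and 2.23 to 5.41 CPM with a median of 3.43 CPM. Within those 7 libraries, the Pearson r of P2RY14 with the log2 TMM factor was -0.05 (exact permutation p = 0.91, adjusted over 3 relations 0.91) and Spearman rho -0.21 (exact permutation p = 0.66, adjusted 0.66), and r was 0.45 without the 2 farthest libraries. In T3 the 4 libraries with the most P2RY14 had factors of 1.05, 1.201, 1.17 and 1.13 and the other 4 had 1.13, 1.10, 1.205 and 1.25. The study lists the share of uniquely mapped reads for each sample, and its lowest values are those of T1 samples. Read in the order of the labels, the 5 T1 libraries of low factor are those with the lowest shares in T1. T2 replicate 4 had a lower share than T1 replicate 4 and a factor of 1.21. The relation of share and factor was not tested, nor was what sets the factor.

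**Figure D5:**
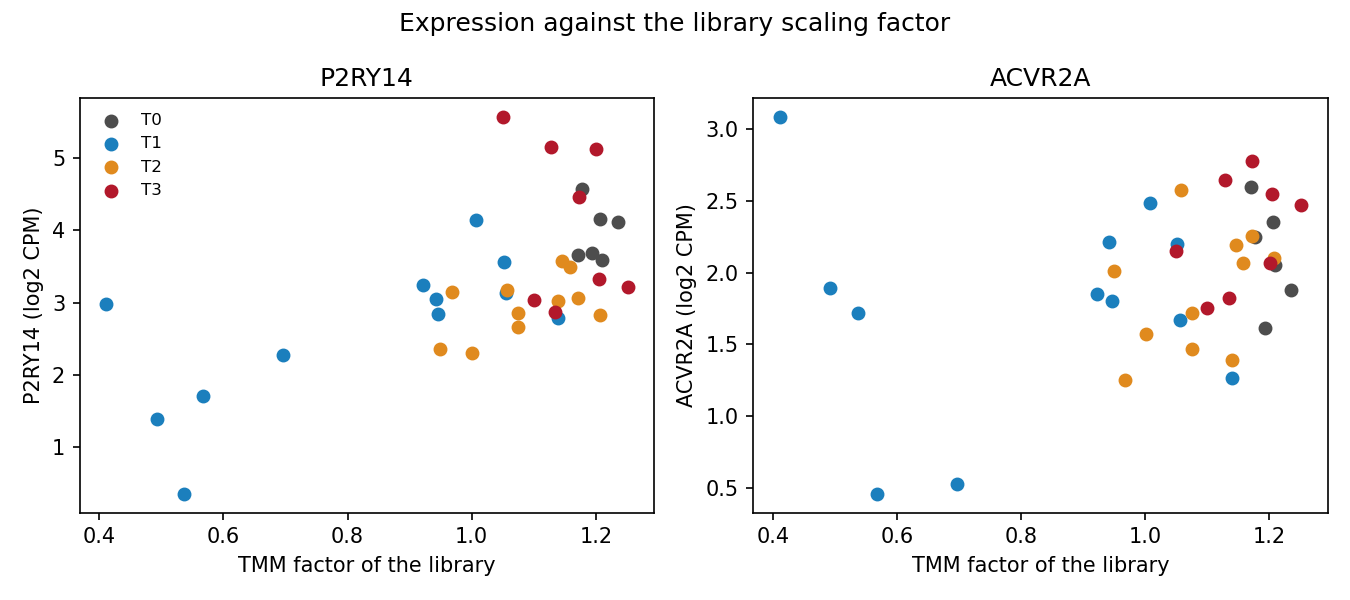
Log2 CPM of P2RY14 (left) and ACVR2A (right) against the TMM factor of the library, coloured by period. The 5 T1 libraries with a factor of at most 0.696 hold the 4 lowest values of P2RY14, and the T3 libraries have factors between 1.05 and 1.25 at both low and high P2RY14.

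Over the 37 libraries, the gene with the log2 CPM pattern most like that of P2RY14 was ENSECAG00000019132 (Pearson r = 0.81, among 9328 genes whose counts averaged 50 or more), to which no symbol could be matched. The study prints identifiers for some genes, among them ENSECAG00000016162, which it calls LOC100062658. Of 73 genes with such an identifier, the closest were ENSECAG00000016162 (r = 0.76), LARP4, an RNA-binding protein that stabilises messenger RNA (r = 0.73), and FOXN2, a forkhead transcription factor (r = 0.72). The mean level of LARP4 was 20.6, 6.78, 9.81 and 20.7 CPM in T0, T1, T2 and T3, and that of FOXN2 was 22.1, 6.25, 8.10 and 29.9 CPM. ACVR2A ranked 3221 of 12024 genes by likeness to P2RY14 (r = 0.48). These correlations are descriptions over libraries that share periods and scaling.

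The pattern most like that of ACVR2A was that of ENSECAG00000008379 (r = 0.83, among 9329 genes), also without a symbol, with mean levels of 29.5, 19.5, 20.1 and 29.1 CPM in T0, T1, T2 and T3. Among the genes with an identifier in the study, ENSECAG00000019355 (r = 0.77), ENSECAG00000016162 (r = 0.73) and TMED5, a cargo receptor of the early secretory pathway (r = 0.70), came closest. TMED5 had 35.9, 13.8, 19.1 and 36.5 CPM. P2RY14 ranked 632 of 12024 genes by likeness to ACVR2A.

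The lists fixed for the activin pathway and for P2Y receptors could not be matched to the count table, because the reference table holds 0 Ensembl identifiers. The genes that the study itself identifies were used instead. Most of its surface and receptor genes are MHC class I-like, so this list holds related genes and is not a sample of surface receptors. Of 9 other surface and receptor genes, 6 were called higher and 1 lower in T1 than in T0 (median log2 fold change 0.88, against -0.05 for all genes tested), and 5 and 1 without the 5 T1 libraries of low TMM factor (median 0.69). With the log2 TMM factor as a covariate, 1 was called higher and 1 lower (median 0.65). Of all genes tested 58.1% were called in that pair, 33.4% in T0:T2, 44% in T2:T3 and 65% in T1:T3. The 1 that fell was LY75, an endocytic receptor of dendritic cells (-1.98, standard error 0.34, edgeR adjusted p = 1.8e-04), and IL10RB, a subunit of the interleukin-10 receptor, was among the 6 that rose (0.53, standard error 0.15, edgeR adjusted p = 0.0066). In T2 against T0, 4 of the 9 were called higher and 1 lower (median 0.58, against 0.04 for all genes tested), and with the log2 TMM factor as a covariate edgeR called 0 of 9, with 0 at an unadjusted p under 0.05. With that covariate 0 of all genes tested were called in T0:T2. From T2 to T3, 1 was called higher, again LY75 (1.29, standard error 0.25, edgeR adjusted p = 4.9e-04), 1 lower and 7 not called (median -0.65, against -0.05). In these pairs LY75 moved in the direction of P2RY14. From T1 to T3, 1 rose and 5 fell (median -1.13, against 0.04), 1 and 4 without the 5 T1 libraries of low TMM factor (median -0.68), and 1 and 1 with the log2 TMM factor as a covariate (median -0.42). Between T0 and T3, 0 of the 9 were called by edgeR, with 1 at an unadjusted p under 0.05, and 0 by DESeq2. From T1 to T2, 1 rose and 2 fell, but without the 5 T1 libraries of low TMM factor edgeR called 0, with 0 at an unadjusted p under 0.05. Of all genes tested, 19.6% were called in T0:T3 and 32% in T1:T2, and 0 in T1:T2 without those 5 libraries.

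Of 15 further genes that the study listed, like both receptors, as higher in 2 or more comparisons of these libraries, 14 were called lower in T1 than in T0 (median log2 fold change -1.59), 13 lower in T2 than in T0 (-0.97), 14 higher in T3 than in T1 (1.95) and 14 higher in T3 than in T2 (1.24). Over all genes tested, 29.2% and 16.5% were called lower in the first 2 of these pairs, and 32.9% and 22.5% were called higher in the other 2. Without the 5 T1 libraries of low TMM factor both T1 counts were again 14 (medians -1.26 and 1.65). With the log2 TMM factor as a covariate the count for T0:T2 was 0 by edgeR, with 4 at an unadjusted p under 0.05. It was also 0 over all genes tested. Since the study chose them on these libraries, their direction is not independent evidence. Between T0 and T3, 1 of the 15 was called, and between T1 and T2 2 were, all higher in the later period, where 19.6% and 32% of all genes were called. For T0:T3 the count was 6 with the log2 TMM factor as a covariate. For T1:T2 edgeR called 0, with 0 at an unadjusted p under 0.05, with that covariate, with the surrogate variable and without the 5 T1 libraries of low TMM factor. In each of these settings 0 of all genes tested were called in T1:T2. The log2 fold change of P2RY14 from T2 to T3, 1.44, lay inside the range of these genes (0.63 to 2.56), and that of ACVR2A, 0.40, lay below all of them.

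Of the 8 other genes for which the study designed qPCR primers, including the reference genes SDHA and GAPDH, 4 rose and 1 fell from T2 to T3 (median log2 fold change 0.67), and 2 were called higher and 4 lower in T1 than in T0 (-0.87), in pairs in which 44% and 58.1% of all genes were called. T2 against T0 gave 1 higher and 4 lower (-0.68), T3 against T1 gave 4 higher and 2 lower (0.84), T2 against T1 gave 1 lower (0.18), and T0:T3 gave 0 calls by edgeR (0.05), with 0 at an unadjusted p under 0.05, and 0 by DESeq2. Of all genes tested, 33.4% were called in T0:T2, 65% in T1:T3, 32% in T1:T2 and 19.6% in T0:T3. Without the 5 T1 libraries of low TMM factor, T0:T1 gave 1 higher and 4 lower (-0.60), T1:T3 gave 4 higher and 1 lower (0.59), and T1:T2 gave 0 by edgeR (0.02), with 0 at an unadjusted p under 0.05. With the log2 TMM factor as a covariate, T0:T2 gave 0 by edgeR, with 1 at an unadjusted p under 0.05. In T1:T2 without those 5 libraries, and in T0:T2 with that covariate, edgeR called 0 of all genes tested. SDHA, a subunit of succinate dehydrogenase, had a log2 fold change of -0.01 from T2 to T3 (standard error 0.09) and GAPDH, a glycolytic enzyme, had -0.19 (standard error 0.14), and neither was called in that pair. GAPDH was called higher in T1 than in T0 (0.51, standard error 0.19, edgeR adjusted p = 0.025).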

How the data were processed

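Jugular blood of Arabian horses was collected into RNA-stabilising tubes, and libraries were prepared with the TruSeq RNA kit v2, which does not mark strand. The authors trimmed reads with Flexbar 2.5, aligned them to EquCab2.0 with STAR 2.4.2a and counted genes of Ensembl release 83 with RSEM 1.2.22. The deposited values are expected counts per gene for 37 libraries, and they were rounded to whole numbers here. The 3 smaller tables hold the same counts for subsets of genes and were not used, and 0 columns of single libraries were left unused.

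Per pair of periods, low genes were removed with filterByExpr, libraries were scaled by TMM and tested with the quasi-likelihood F-test of edgeR 4.0.16 in R 4.3.3, adjusted after Benjamini and Hochberg over all genes tested. DESeq2 1.42.0, limma 3.58.1 and sva 3.50.0 gave alternatives. Levels were scaled in 1 step over the 37 libraries, and log2 CPM used a prior count of 2. Single values were tested with two-sided permutation tests on the absolute difference, exact except for 100000 resamples for T1 against T2 and for correlations over 10 or more libraries (scipy 1.17.1, numpy 2.4.6). The edgeR test of a pair and the permutation tests of means and correlations were tried on simulated data. The alternative fits were not. Total counts per library, 3810631 to 14932603, set the counting precision.

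Named beside both receptors were, for each, the most similar gene by Pearson r over the 37 libraries and the 3 most similar among the genes with an identifier in the study. The rule took the 2 most similar of all genes, and the next, for which no symbol could be matched, is not printed. The rule also covered lists by symbol (activin and TGF-beta signalling, P2Y receptors and UDP-sugar supply, and markers of blood cell types), none of which could be paired, because the RefSeq table of TB-T2T holds 0 Ensembl identifiers, and lists by identifier, of which all 74 identifiers were in the counts. LY75, IL10RB, SDHA and GAPDH were named from their lists after their values were seen. The members and lists were chosen with earlier results of these data known.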

Additional observations from a re-analysis of the deposited data

How the results depend on the processing

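Of 296 values recomputed under another setting, 256 kept their direction and their side of the threshold, as did 461 of 492 with 1 library left out. P2RY14 with the log2 TMM factor as a covariate lost its calls for T0:T1 (-0.44), T0:T2 (-0.62) and T1:T3 (1.06), and its T1:T2 value turned negative there (-0.37), with the first surrogate variable (-0.27) and without the 5 T1 libraries of low TMM factor (-0.31), a setting chosen after seeing the data. The same setting turned ACVR2A for T1:T2 (-0.033). ACVR2A was called for T1:T3 with the surrogate variable (0.59), with at least 6 counts in every library (0.73), after thinning (0.80) and with limma-voom (0.60), and for T2:T3 with the first 3 of these (0.45, 0.51 and 0.70). On the CPM scale the spread of P2RY14 was also called for T1:T3 (9.98 CPM, exact permutation p adjusted to 0.0012), and that of ACVR2A for T2:T3 turned positive (0.23 CPM). The cause of these changes was not tested.

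The number in the sample title was also fitted as a replicate block. Same-numbered libraries had deviations correlated above 0.1 in 7 of 11 cases for T1:T2, 5 of 8 for T1:T3 and 2 of 8 for T2:T3, and in at most 3 of 6 for the pairs with T0. They were of the same sex in 6 of 11, 5 of 8 and 3 of 8 cases of the first 3 pairs. Not all cases passed 0.1 in any of the 6 comparisons, so the numbers were not taken to pair the libraries. With the block, ACVR2A was called for T0:T1 (-0.90), T1:T3 (0.91) and T2:T3 (0.57), P2RY14 turned negative for T0:T3 (-0.12) and stayed called in 4 pairs, and 1447 genes were called for T0:T3. A library was closest to its own number in 3 of 11 cases for T1:T2, 4 of 8 for T1:T3 and 1 of 8 for T2:T3.

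The number of called genes fell with the log2 TMM factor to 2795 (T0:T1), 0 (T0:T2, 1180 at an unadjusted p under 0.05), 0 (T1:T2, 649), 4804 (T1:T3) and 2965 (T2:T3). For T1:T2 edgeR also called 0 with the surrogate variable (913 at an unadjusted p under 0.05) and without the T1 libraries of low factor (1444), against 3584 as reported and 4296 by DESeq2 without such a term. With at least 6 counts in every library, which tests fewer genes, it was 2354 for T0:T2 and 3212 for T2:T3. In 1 fit of all 37 libraries it was 2113 for T0:T2, where DESeq2 called 4204, and 717 for T0:T3, and after thinning 1449 for T0:T3.

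The correlations of log2 CPM with the log2 TMM factor changed sign without the 2 farthest libraries for ACVR2A in T0 (0.041) and T1 (0.56) and for P2RY14 in T3 (0.32), with RLE size factors for P2RY14 in T0 (0.016) and within the 7 T1 libraries of higher factor for P2RY14 (-0.048, chosen after seeing the data). The r of P2RY14 in T1 passed without the 2 farthest (0.86), and that of both receptors in T3 turned to -0.42.

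With 1 library left out, the log2 fold change of P2RY14 ranged from -0.012 to 0.32 for T1:T2, and that of ACVR2A from -0.030 to 0.21 for T1:T2, 0.40 to 0.60 for T1:T3 and 0.32 to 0.48 for T2:T3. The spread difference ranged from 0.48 to 0.64 for P2RY14 in T0:T3, from 0.49 to 0.65 in T2:T3, and from -0.0012 to 0.055 for ACVR2A in T0:T3. The log2 ratio ranged from -0.92 to -0.67 for T0:T2, -0.26 to 0.13 for T0:T3, 0.74 to 1.12 for T1:T3 and 0.51 to 0.89 for T2:T3. ACVR2A rested on as few as 7 reads in a library, which limits its precision.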
